A study of Mus musculus with 7 samples.

Results

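The Nrf2 oxidative stress and metallothionein genes were examined in mouse liver, namely *Nfe2l2*, *Keap1*, *Nqo1*, *Hmox1*, *Gclc*, *Gclm*, *Srxn1*, *Txnrd1*, *Mt1* and *Mt2*. These 10 genes were chosen by name, and all of their probes on the array were read. Each of the 10 had a tested probe, out of 18755 genes tested in all. The 12 probes of these genes, 2 each for *Hmox1* and *Mt1* and 1 for each of the others, were well above background on all 7 arrays.

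The RNA came from whole liver of untreated C57BL/6J mice at the age of 4 weeks, and each animal had its own 1-colour Cy3 array. The Rbpj+/+ group held 4 mice with floxed *Rbpj* alleles and no Cre (AlfpCre-), labelled as free of cholestasis. The Rbpj-/- group held 3 mice with the same floxed alleles and the AlfpCre transgene (AlfpCre+), and their livers were labelled as cholestatic. *Rbpj* encodes the DNA-binding factor through which Notch receptors control their target genes. AlfpCre is driven by albumin and alpha-fetoprotein control elements in the cells that give rise to hepatocytes and bile duct cells, so the other cells of whole liver keep *Rbpj*. The targeted gene *Rbpj* differed by -1.13 on the log2 scale (SE 0.24, limma adjusted p = 0.0115, genotypes apart), or by -0.41 without normalization between arrays (adjusted p = 0.393), and whether its probe lies within the deleted part was not tested. Genotype, cholestasis and the row of the slide on which an array lay cannot be told apart, since no slide row held both genotypes.

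Nrf2, the product of *Nfe2l2*, is a transcription factor that is held in the cytoplasm and passed on for degradation by Keap1. Oxidants and electrophiles modify Keap1, after which Nrf2 accumulates and binds antioxidant response elements with small Maf proteins. Its targets detoxify quinones, break down heme, make glutathione and keep thioredoxin and peroxiredoxins reduced. Metallothioneins are small cysteine-rich proteins that bind zinc and copper, and their genes are switched on by the metal sensor Mtf1 at metal response elements, by glucocorticoids and in the acute phase response of the liver.

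Values are background-subtracted log2 intensities minus the 75th percentile of the same array, and are called normalized log2 signals here. They are given in the order of replicates 1 to 4 (Rbpj+/+) and 1 to 3 (Rbpj-/-). The share of probes well above background was 61.78% on the array of Rbpj+/+ replicate 2 and 64.91% on that of Rbpj-/- replicate 1, against 41.1% to 47.66% on the other 5 arrays. The 75th percentile lay between 57.46 and 102.6 intensity units in Rbpj+/+ and between 118.1 and 142.5 in Rbpj-/-. The counts of called members are also given without the 2 arrays with the larger shares.

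The sequences upstream of the transcription start are shown for *Mt1* and *Mt2*, which moved together across the arrays, and for *Nfe2l2*, *Gclm* and *Txnrd1*, the Nrf2 pathway members in which the core of an antioxidant response element was found. The stretches cover 250 bases before an annotated start (RefSeq, GRCm38.p6) and are written 5′ to 3′ on the strand of the gene. Capitals mark the core of a metal response element (TGCGCNC or TGCACNC) in *Mt1* (chr8:94178839-94179088, + strand) and *Mt2* (chr8:94172368-94172617, + strand). In *Nfe2l2* (chr2:75704664-75704913, - strand), *Gclm* (chr3:122245307-122245556, + strand) and *Txnrd1* (chr10:82858956-82859205, + strand) they mark the core of an antioxidant response element (TGACNNNGC). Both strands were searched for each motif, and a match on the other strand is written as it reads on the strand of the gene. In *Mt1* and *Gclm* the annotated locus begins before the end of the window, since another transcript starts further upstream.
Mt1: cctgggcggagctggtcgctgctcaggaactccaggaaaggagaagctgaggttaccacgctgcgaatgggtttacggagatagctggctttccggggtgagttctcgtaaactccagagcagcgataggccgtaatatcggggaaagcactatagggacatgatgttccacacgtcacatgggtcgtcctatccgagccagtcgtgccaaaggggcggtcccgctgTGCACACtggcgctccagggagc
Mt2: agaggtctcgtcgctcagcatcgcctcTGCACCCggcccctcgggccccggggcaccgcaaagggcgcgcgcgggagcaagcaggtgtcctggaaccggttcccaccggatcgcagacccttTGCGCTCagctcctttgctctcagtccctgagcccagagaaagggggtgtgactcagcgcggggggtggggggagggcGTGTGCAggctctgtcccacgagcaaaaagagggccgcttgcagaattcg
Nfe2l2: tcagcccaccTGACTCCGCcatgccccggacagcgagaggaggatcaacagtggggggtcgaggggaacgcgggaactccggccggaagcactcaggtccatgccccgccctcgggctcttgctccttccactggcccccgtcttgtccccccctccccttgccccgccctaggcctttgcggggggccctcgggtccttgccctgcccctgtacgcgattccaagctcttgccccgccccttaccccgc
Gclm: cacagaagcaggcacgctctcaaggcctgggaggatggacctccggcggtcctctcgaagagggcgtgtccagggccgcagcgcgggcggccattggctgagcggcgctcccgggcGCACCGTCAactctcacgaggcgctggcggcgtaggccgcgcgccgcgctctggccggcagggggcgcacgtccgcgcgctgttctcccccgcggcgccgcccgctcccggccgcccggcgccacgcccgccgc
Txnrd1: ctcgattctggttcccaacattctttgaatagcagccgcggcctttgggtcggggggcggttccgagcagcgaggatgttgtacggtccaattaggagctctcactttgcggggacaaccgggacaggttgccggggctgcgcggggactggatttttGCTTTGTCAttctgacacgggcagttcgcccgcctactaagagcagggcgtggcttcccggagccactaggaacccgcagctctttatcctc

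RefSeq entries were at hand for 8 of the 10 members, with 10 windows in all, and not for *Hmox1* and *Gclc*. The antioxidant core was found in 10.2% of all 32851 promoters of this length and in 4 of the 8 members, namely *Nfe2l2*, *Gclm*, *Mt2* and 1 of the 3 starts of *Txnrd1*. In *Mt2* it reads TGACTCAGC and begins at position -79, counted from the start. The metal core was found in 21.4% of all promoters. It begins at positions -223, -128 and -50 in *Mt2* and at -23 in *Mt1*. With the 50 bases after the start included, the metal core occurred 4 times in *Mt2* and 3 times in *Mt1*, while 1.97% of all promoters held 3 or more. The added matches begin at positions 3 and 21 in *Mt1* and at 5 in *Mt2*. The counts of both motifs depend on where the annotated start lies, and which start is used in liver was not tested. The metal core was not limited to the metallothionein genes, since *Gclm* held it at positions -138, -72 and 28 and *Srxn1* at -19. Of the called members with an entry, *Nqo1* and *Srxn1*, neither held the antioxidant core in the 250 bases before the start. With the 50 bases after the start included, 12.4% of all promoters held it, and *Srxn1* did at position 29. A match or its absence in this window is a description only. In *Gclm* a metal core overlaps the antioxidant core, beginning at -138 and -134. On chromosome 8 the genes *Mt2* (94172618 to 94173567) and *Mt1* (94178883 to 94180327) are neighbours, 5315 bases apart (GRCm38.p6).

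The genotypes differed in 4 of the 10 members. *Nqo1*, *Hmox1* and *Srxn1* were higher and *Gclc* was lower in Rbpj-/- liver at a limma adjusted p below 0.1. Over all tested genes 34.2% passed this threshold, 14.6% higher and 19.5% lower, so that the share of called members was close to the background. The genotypes did not overlap in the same 4 members, while they did not overlap in 36.6% of all genes. The mean was higher in Rbpj-/- liver in 9 of the 10 members, and the median log2 difference of the members was 0.68 against -0.13 over all tested genes. The share of all genes with a higher mean was not counted, and the members were chosen with earlier results of these data known. *Keap1* (0.15), *Gclm* (0.30) and *Txnrd1* (0.33) lay between the 25th and 75th percentile of all tested genes (-0.52 to 0.35). Without normalization between arrays the median of all tested genes was 0.60. Without the arrays of Rbpj+/+ replicate 2 and Rbpj-/- replicate 1, 2 members were called higher and 1 lower, and 28.8% of all genes were called. Whole liver was measured, in which fewer cells of a type and less RNA per cell cannot be told apart.

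**Figure D1:**
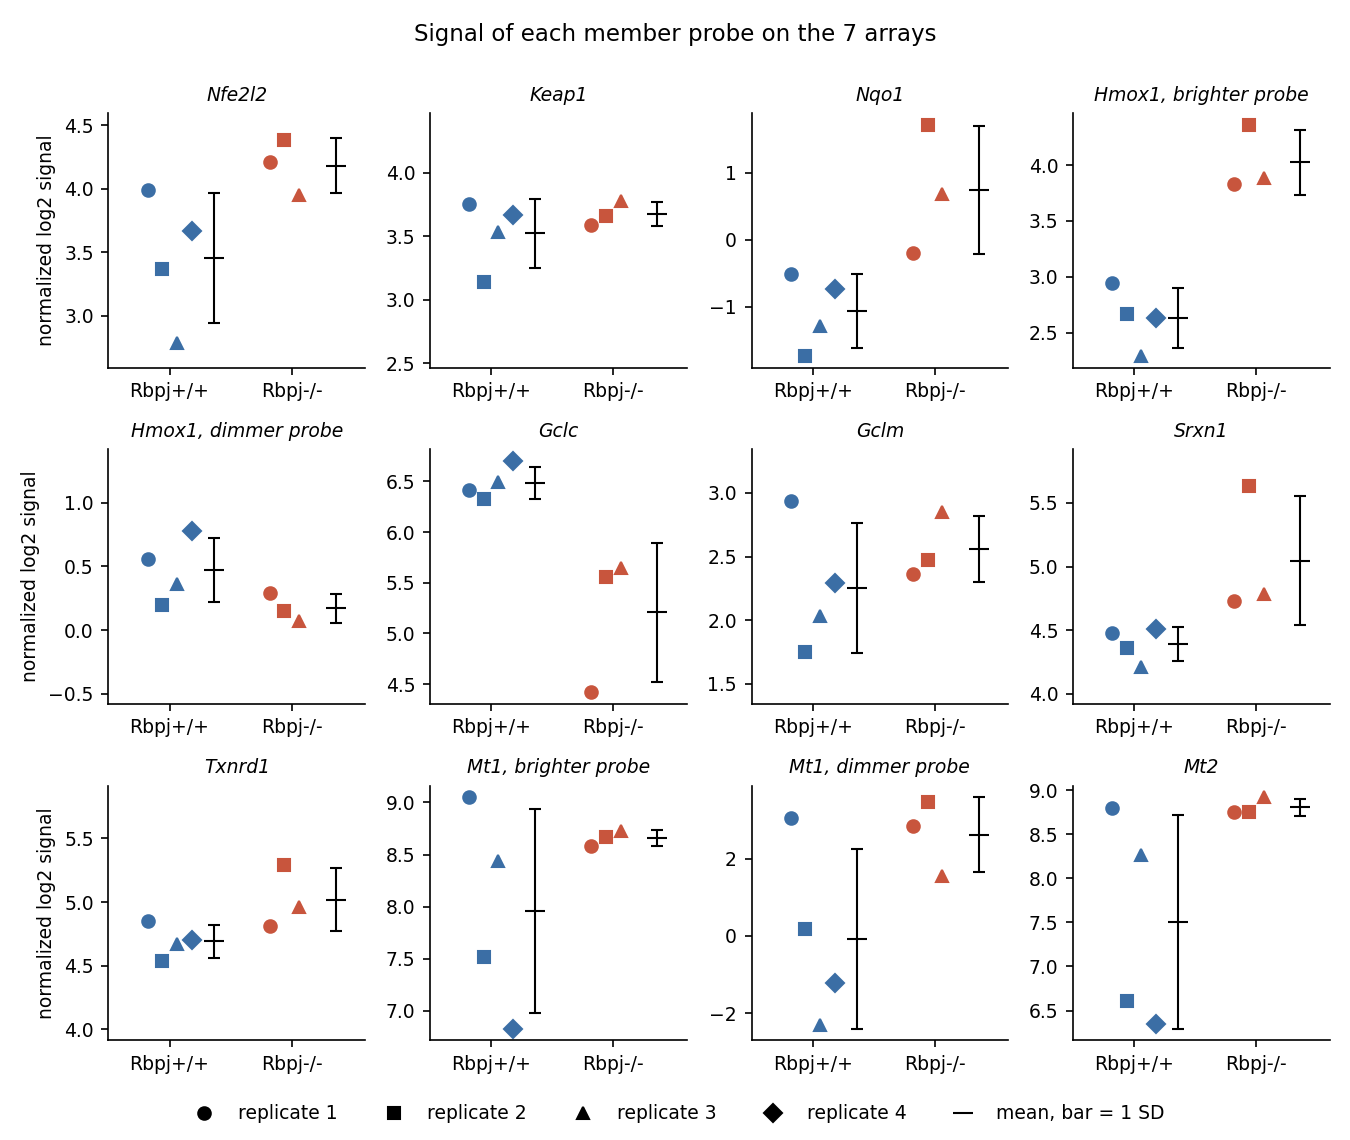
Normalized log2 signal (y axis, own range in each panel) of the 12 member probes on the arrays of 4 Rbpj+/+ (blue) and 3 Rbpj-/- (red) animals, with the mean and 1 SD beside the points. The genotypes are apart for *Nqo1*, the brighter *Hmox1* probe, *Gclc* and *Srxn1*, and *Mt1* and *Mt2* are scattered in Rbpj+/+ and close together in Rbpj-/- liver.

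The regulators were read first. *Nfe2l2*, which encodes Nrf2 (chromosome 2, 75675513 to 75704663, GRCm38.p6, as for all gene positions here), had signals of 3.99, 3.37, 2.79 and 3.67 in Rbpj+/+ and 4.21, 4.38 and 3.95 in Rbpj-/- liver. All 3 Rbpj-/- animals lay above 3 of the 4 Rbpj+/+ animals, and only Rbpj+/+ replicate 1 reached into their range. The log2 difference was 0.73 (SE 0.29, 95% confidence interval 0.07 to 1.38), which just missed the threshold (limma adjusted p = 0.101, exact two-sided permutation p = 0.0857). Without Rbpj+/+ replicate 1 it was 0.90 with an adjusted p of 0.0555, the only fit without 1 array that passed. Without Rbpj+/+ replicate 3 it was 0.50 (adjusted p = 0.206) and without Rbpj-/- replicate 2 it was 0.62 (adjusted p = 0.268).

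*Keap1*, the Nrf2 inhibitor (chromosome 9, 21229730 to 21239332), had signals of 3.75, 3.14, 3.53 and 3.67 in Rbpj+/+ and 3.59, 3.66 and 3.78 in Rbpj-/- liver. The ranges overlapped almost fully. This amounted to a log2 difference of 0.15 (SE 0.21, 95% confidence interval -0.31 to 0.62, limma adjusted p = 0.619), and to 0.02 without Rbpj+/+ replicate 2.

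*Nqo1* encodes a quinone reductase that is widely used as a readout of Nrf2 activity (chromosome 8, 107388225 to 107403205). Its signals were -0.51, -1.74, -1.29 and -0.74 in Rbpj+/+ and -0.19, 1.72 and 0.69 in Rbpj-/- liver. The genotypes were apart, with Rbpj-/- replicate 1 next to the highest Rbpj+/+ animal and Rbpj-/- replicate 2 farthest from it. The log2 difference of 1.81 (SE 0.45, 95% confidence interval 0.78 to 2.84) was the largest among the brightest probes of the 10 members and stands for a 3.51-fold higher signal (limma adjusted p = 0.0231). The exact two-sided permutation test gave 0.0286, the smallest p that 35 assignments of 7 animals allow. The Rbpj-/- animals differed among themselves with an SD of 0.95, larger than in 96.2% of the tested genes. Without Rbpj-/- replicate 2 the log2 difference was 1.32 (adjusted p = 0.0801), and with normexp background correction it was 0.95 (adjusted p = 0.0391).

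*Hmox1* encodes heme oxygenase 1, which opens the heme ring and releases iron, carbon monoxide and biliverdin (chromosome 8, 75093618 to 75100593). The brighter of its 2 probes (mm9 chr8:77624207-77624266) gave 2.94, 2.67, 2.29 and 2.63 in Rbpj+/+ and 3.83, 4.36 and 3.88 in Rbpj-/- liver. All 3 Rbpj-/- animals lay clearly above all Rbpj+/+ animals. The log2 difference was 1.39 (SE 0.23, 95% confidence interval 0.88 to 1.91), a 2.63-fold higher signal, and had the smallest p among the members (limma adjusted p = 0.00453, exact permutation p = 0.0286). This call held in all 20 alternative settings, with differences from 0.54 to 2.12.

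The dimmer *Hmox1* probe did not show this difference. It gave 0.56, 0.20, 0.36 and 0.78 in Rbpj+/+ and 0.29, 0.15 and 0.07 in Rbpj-/- liver, and the log2 difference was -0.30 (SE 0.20, 95% confidence interval -0.76 to 0.15, limma adjusted p = 0.297). It begins 3410 bases upstream of the brighter probe (mm9 chr8:77620797-77620856), and is shown because the 2 probes disagree. Its 60 bases are open in 1 of the 3 forward reading frames, while the brighter probe is open in 0 of 3 and therefore does not lie wholly in coding sequence.
Hmox1 dimmer probe: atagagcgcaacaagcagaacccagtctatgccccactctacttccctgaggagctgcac
Within each array, the brighter minus the dimmer probe was, relative to the mean of the Rbpj+/+ arrays, 0.23, 0.31, -0.23 and -0.30 in Rbpj+/+ and 1.37, 2.05 and 1.66 in Rbpj-/- liver. This within-array measure differed by 1.70 without overlap (exact two-sided permutation p = 0.0286). The mean of both probes gave a log2 difference of 0.54 (adjusted p = 0.0655).

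*Gclc* and *Gclm* encode the catalytic and the modifier subunit of glutamate-cysteine ligase, the rate-limiting enzyme of glutathione synthesis. *Gclc* (chromosome 9, 77754535 to 77794489) was the only member with a lower mean. It gave 6.41, 6.33, 6.49 and 6.70 in Rbpj+/+ and 4.42, 5.56 and 5.65 in Rbpj-/- liver. The Rbpj+/+ animals lay close together (SD 0.16) and all above the Rbpj-/- animals, of which replicate 1 was lowest. The genotypes differed by -1.27 on the log2 scale (SE 0.30, 95% confidence interval -1.96 to -0.58), a 2.42-fold lower signal (limma adjusted p = 0.0194, exact permutation p = 0.0286). Only 3.97% of the tested genes had a smaller, that is more negative, difference. Without Rbpj-/- replicate 1 it was -0.88 (adjusted p = 0.0372), and without normalization between arrays it was -0.55 and not called (adjusted p = 0.218).

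*Gclm* (chromosome 3, 122245487 to 122267215) gave 2.94, 1.75, 2.03 and 2.29 in Rbpj+/+ and 2.36, 2.47 and 2.85 in Rbpj-/- liver. Rbpj+/+ replicate 1 was the highest array of all, and the genotypes overlapped. Between the means lay a log2 difference of 0.30 (SE 0.29, 95% confidence interval -0.36 to 0.97, limma adjusted p = 0.474). It was 0.53 without Rbpj+/+ replicate 1, 0.14 without Rbpj+/+ replicate 2 and 0.16 without Rbpj-/- replicate 3. *Gclc* minus *Gclm* within each array differed by -1.58 between the genotypes without overlap (exact two-sided permutation p = 0.0571). The exact test did not pass 0.05.

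*Srxn1* encodes sulfiredoxin, which reactivates overoxidized peroxiredoxins (chromosome 2, 152105524 to 152111376). It gave 4.48, 4.36, 4.21 and 4.51 in Rbpj+/+ and 4.73, 5.63 and 4.78 in Rbpj-/- liver. The genotypes were apart, but Rbpj-/- replicates 1 and 3 lay just above the Rbpj+/+ range and replicate 2 far above it. The log2 difference was 0.66 (SE 0.25, 95% confidence interval 0.09 to 1.23, limma adjusted p = 0.0903, exact permutation p = 0.0286). This call was lost in 6 of 7 fits that left out 1 array, and the difference was 0.36 without Rbpj-/- replicate 2 (adjusted p = 0.298).

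*Txnrd1* encodes the cytosolic thioredoxin reductase (chromosome 10, 82833951 to 82897724). It gave 4.85, 4.54, 4.67 and 4.70 in Rbpj+/+ and 4.81, 5.29 and 4.96 in Rbpj-/- liver. Only Rbpj-/- replicate 1 fell into the Rbpj+/+ range. With a log2 difference of 0.33 the test was not passed (SE 0.19, 95% confidence interval -0.11 to 0.77, limma adjusted p = 0.239), and the difference was 0.20 without Rbpj-/- replicate 2. Among the Rbpj-/- animals, replicate 2 was highest for *Nfe2l2*, *Nqo1*, *Hmox1*, *Srxn1* and *Txnrd1*, and replicate 3 for the other 5 members. Rbpj+/+ replicate 1 was the highest of its group in 8 of the 10 members.

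**Figure D2:**
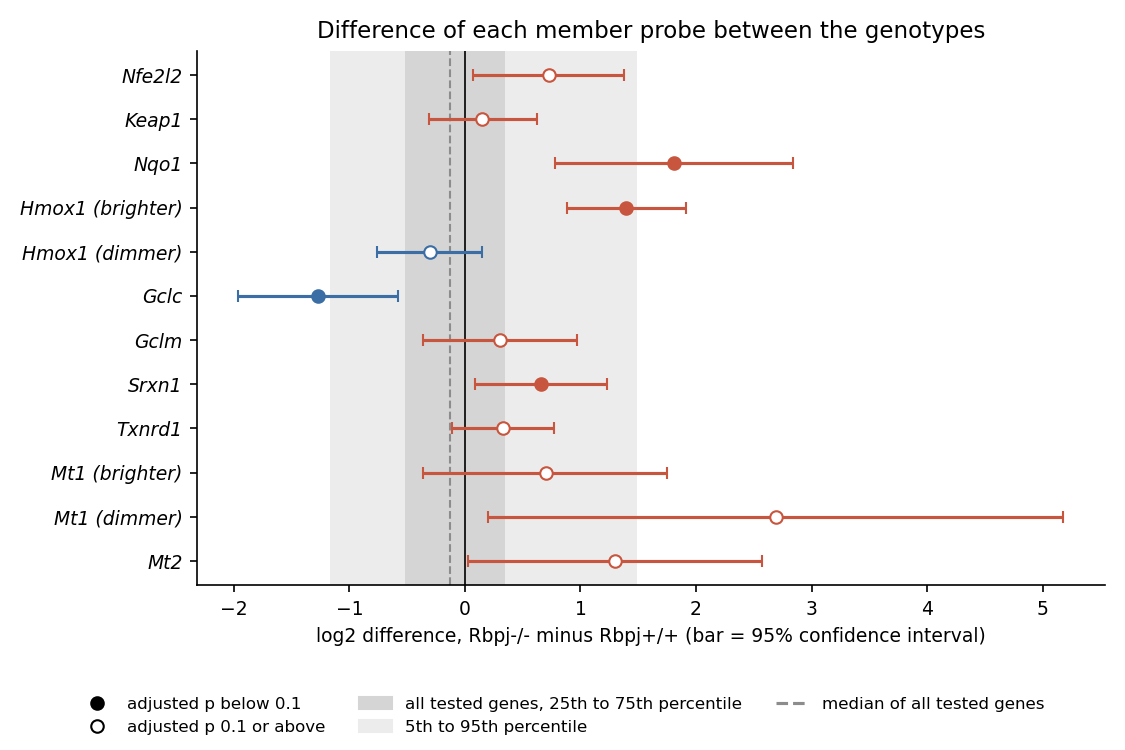
Log2 difference between Rbpj-/- and Rbpj+/+ liver (x axis) of the 12 member probes with the 95% confidence interval, filled where the adjusted p is below 0.1. Grey bands show the 25th to 75th (-0.52 to 0.35) and the 5th to 95th percentile (-1.17 to 1.49) of all tested genes, and *Nqo1* and the dimmer *Mt1* probe lie above and *Gclc* below the wider band.

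The metallothionein genes spread over 2.22 (*Mt1*) and 2.44 (*Mt2*) on the log2 scale within Rbpj+/+ liver, more than the means of the genotypes differed. The brighter *Mt1* probe gave 9.05, 7.52, 8.44 and 6.83 in Rbpj+/+ and 8.58, 8.67 and 8.73 in Rbpj-/- liver. *Mt2* gave 8.80, 6.61, 8.26 and 6.35 in Rbpj+/+ and 8.75, 8.75 and 8.92 in Rbpj-/- liver. In both genes Rbpj+/+ replicates 1 and 3 were high and replicates 2 and 4 low, and the 3 Rbpj-/- animals lay together near the upper end of the Rbpj+/+ range. The log2 difference was 0.70 for *Mt1* (SE 0.47, limma adjusted p = 0.301) and 1.30 for *Mt2* (SE 0.56, limma adjusted p = 0.123). The 95% confidence intervals reached from -0.36 to 1.75 for *Mt1* and from 0.03 to 2.57 for *Mt2*. Without Rbpj+/+ replicate 1 both passed the threshold, with 1.06 for *Mt1* (adjusted p = 0.0866) and 1.73 for *Mt2* (adjusted p = 0.0375). Neither passed without any other single array, and without Rbpj+/+ replicate 4 the differences were 0.32 (adjusted p = 0.572) and 0.92 (adjusted p = 0.237).

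The SD of *Mt1* was 0.98 in Rbpj+/+ and 0.07 in Rbpj-/- liver, and that of *Mt2* was 1.21 and 0.10. In Rbpj+/+ liver 96.6% of the tested genes varied less than *Mt1* and 98.4% less than *Mt2*, and in Rbpj-/- liver 4.86% and 9.79% did. The median SD of all tested genes was 0.31 in Rbpj+/+ and 0.26 in Rbpj-/- liver. Among the 281 genes with a mean normalized log2 signal of at least 8, *Mt2* and *Mt1* had the largest SD in Rbpj+/+ liver, where the median was 0.24. In Rbpj-/- liver 71 of these 281 genes varied no more than *Mt2*. The difference in spread between the genotypes was not tested.

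In scanner units the *Mt1* probe gave 54400, 15700, 20000 and 8540 in Rbpj+/+ and 54700, 52800 and 50100 in Rbpj-/- liver. No spot was marked as saturated, and the brightest probe of an array reached between 108000 and 141000. In Rbpj-/- liver between 81 and 85 probes of an array were brighter than the *Mt1* probe, and in Rbpj+/+ liver between 84 and 1148. *Mt2* minus *Mt1* within each array was higher by 0.60 in Rbpj-/- liver without overlap (exact two-sided permutation p = 0.0571). The longest run of bases that any 2 of the member probes shared was 8 of 60.

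The dimmer *Mt1* probe lies 321 bases upstream of the brighter one and is assigned to a predicted transcript. It gave 3.05, 0.17, -2.30 and -1.23 in Rbpj+/+ and 2.84, 3.45 and 1.55 in Rbpj-/- liver. Rbpj+/+ replicate 1 again lay with the Rbpj-/- animals, while replicate 3 was lowest here and high on the brighter probe. Its log2 difference of 2.69 had a wide error (SE 1.10, 95% confidence interval 0.20 to 5.18, limma adjusted p = 0.107).

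**Figure D3:**
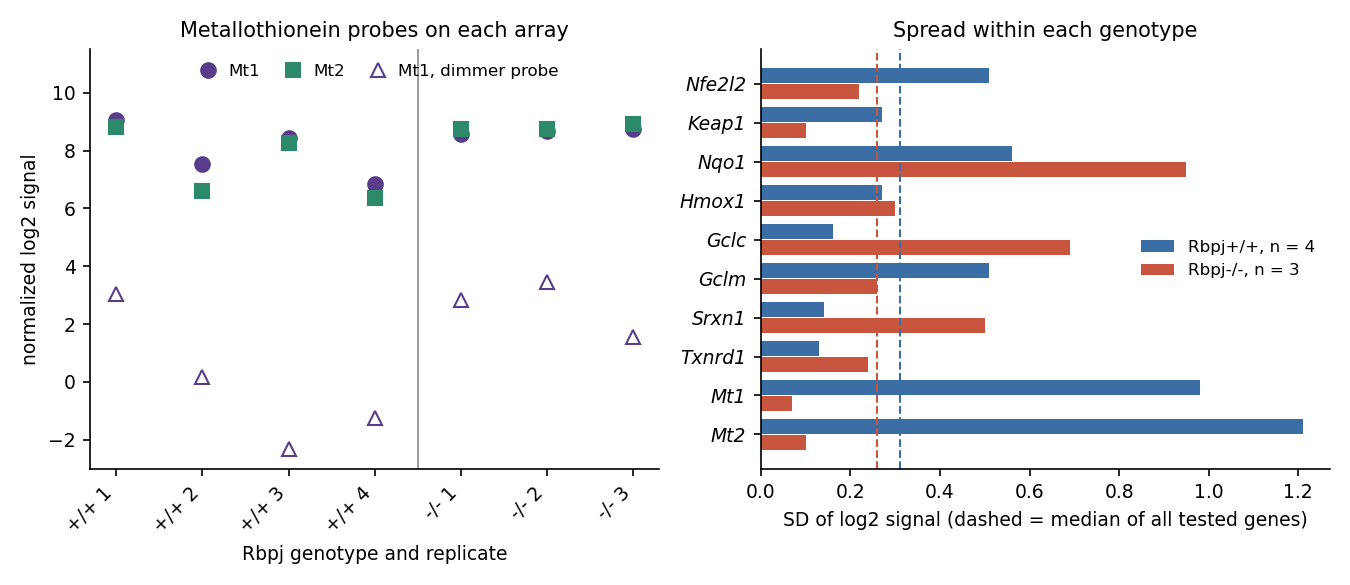
Left, normalized log2 signal (y axis) of the *Mt1* and *Mt2* probes on each array (x axis), with Rbpj+/+ animals to the left of the line. Right, SD of the normalized log2 signal within each genotype for the 10 members, with dashed lines at the medians of all tested genes (0.31 and 0.26), which *Mt1* and *Mt2* exceed in Rbpj+/+ and fall short of in Rbpj-/- liver.

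The genes most like *Mt1*, *Nqo1* and *Hmox1* over the 7 arrays were found by the root mean square difference of profiles centred on their own means, over 18727 other genes. For *Mt1* they were *Zfp324* (0.282), *Ndfip2* (0.299) and *Mphosph9* (0.301), and *Mt2* came 11th with 0.368. For *Nqo1* they were *Hat1* (0.315), *4930579G24Rik* (0.335) and a probe without a gene symbol (0.342). For *Hmox1* they were *E2f1* (0.074), *Cenpk* (0.116) and *Slc35e3* (0.122). The measure is not scaled by the spread of a profile, so its values are not compared between members. These values describe 7 arrays that share their genotypes.

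Other genes of the pathways were read from lists. Of 145 distinct genes 139 were tested, of which 30 were higher and 28 lower in Rbpj-/- liver. The 58 called genes make 41.7%, against 34.2% of all tested genes, and the median log2 difference of the 139 genes was -0.07 against -0.13. The counts of a list in each direction depend on the scaling, as the log2 difference of the median gene was 0.60 without normalization between arrays. Of the 139 genes, 10 entered the test through Rbpj-/- liver only, of which 5 were called higher, namely *Atf3*, *Nfe2*, *Mgst2*, *Gpx2* and *Abcc1*. These 5 were not well above background on 1 to 3 of the 4 Rbpj+/+ arrays, so the sizes of their differences are not exact. Among the 129 genes well above background on all arrays, 25 were higher and 28 lower. Without normalization the lower calls of *Txnrd3*, *Prdx4*, *Cat*, *Sod1*, *Blvrb* and *Slc30a10* were lost.

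Partners and regulators of Nrf2 changed in both directions, with 7 of 22 higher and 3 lower, and a median of -0.10. *Atf3*, a stress-induced repressor and activator of transcription, was 2.98 higher on the log2 scale (SE 0.50, limma adjusted p = 0.00512), and was well above background in 2 of the 4 Rbpj+/+ and all 3 Rbpj-/- animals. *Nfe2*, a blood cell relative of Nrf2, was 1.81 higher (SE 0.51, adjusted p = 0.0339), with 2 of the 4 Rbpj+/+ animals well above background. The repressor *Bach2* had a difference of -1.69 (SE 0.35, adjusted p = 0.0116). The partners and relatives of Nrf2 and Keap1 that were read whatever their values did not pass the test, with log2 differences of -0.57 for the Nrf2 relative *Nfe2l1* (adjusted p = 0.152), -0.10 for *Bach1*, which competes with Nrf2 for its sites (adjusted p = 0.708), and -0.10 for *Mafg*, a small Maf (adjusted p = 0.700). *Cul3*, the ubiquitin ligase scaffold bound by Keap1, had -0.19 (adjusted p = 0.631) and *Sqstm1*, the autophagy receptor that binds Keap1, had 0.54 (adjusted p = 0.246). With normexp, quantile normalization, the series matrix and no normalization the sign of *Mafg* turned, and without normalization those of *Bach1*, *Cul3* and *Nfe2l1* turned too. *Nfe2l1* gained a call with normexp (-0.43, adjusted p = 0.0535), and without normalization *Mafg* (0.63, adjusted p = 0.0995) and *Sqstm1* (1.26, adjusted p = 0.0270) did. With normexp the differences of *Atf3*, *Nfe2* and *Bach2* were 1.04, 0.64 and -0.78, and all 3 passed the test.

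Genes of glutathione synthesis, recycling and peroxidases were mostly higher where they changed, with 10 of 25 higher and 5 lower and a median of 0.57. With normexp 10 were higher and 2 lower (median 0.29), and with quantile normalization 12 and 2 (median 0.66). Without normalization 15 were higher and 0 lower, with a median of 1.29 against 0.60 over all tested genes. *Mgst2*, a microsomal glutathione transferase, was 3.56 higher (SE 0.68, limma adjusted p = 0.00831). *Gpx3*, the secreted glutathione peroxidase, was 3.46 higher (SE 0.34, adjusted p = 0.000579), and *Gpx2*, the epithelial one, was 2.60 higher (SE 0.79, adjusted p = 0.0449). *Mgst2* and *Gpx2* were well above background in 3 of the 4 Rbpj+/+ animals, and with normexp their differences were 1.57 and 0.76. *Gss*, the enzyme of the step after glutamate-cysteine ligase, was 0.95 higher (SE 0.30, adjusted p = 0.0522), whereas *Gclc* was lower. *Gsr*, which reduces oxidized glutathione, had a difference of 0.05 (SE 0.26, adjusted p = 0.909), or 0.77 without normalization (adjusted p = 0.0810). *Slc7a11*, the cystine carrier, was too dim for a test in both genotypes.

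Among thioredoxin and peroxiredoxin genes 1 of 17 was higher and 4 were lower, with a median of -0.27. With quantile normalization 2 were higher and 2 lower, with normexp 3 and 2, and without normalization 6 and 0. *Txnrd3* had a log2 difference of -1.0 (SE 0.33, limma adjusted p = 0.0559) and *Prdx4*, the peroxiredoxin of the endoplasmic reticulum, of -0.84 (SE 0.22, adjusted p = 0.0247). *Txnip*, which binds and inhibits thioredoxin, was 0.67 higher (SE 0.20, adjusted p = 0.0412). *Txn1* had -0.55 (SE 0.20, adjusted p = 0.0790), a call that was lost with normexp, quantile normalization and the series matrix, and which turned to 0.18 without normalization, and *Prdx1* had 0.16 (SE 0.27, adjusted p = 0.701), or 0.89 without normalization (adjusted p = 0.0680). Of the 5 superoxide dismutase and catalase genes 3 were lower and 1 was higher. *Cat* had a difference of -1.38 (SE 0.33, adjusted p = 0.0202), *Sod1* of -0.76 (SE 0.20, adjusted p = 0.0263) and the copper chaperone *Ccs* of -0.60 (SE 0.22, adjusted p = 0.0758). The call of *Ccs* was lost with quantile normalization (-0.34, adjusted p = 0.170), normexp (-0.34, adjusted p = 0.142) and the series matrix (-0.33, adjusted p = 0.177). Its sign turned without normalization (0.12).

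Other Nrf2 target genes were divided, with 9 of 41 higher and 11 lower and a median of -0.18. Among the higher genes *Abcc1*, named after its values were seen, was well above background in 1 of the 4 Rbpj+/+ animals. *Cbr3*, a carbonyl reductase, was 2.20 higher (SE 0.38, limma adjusted p = 0.00560). *Gsta4*, which conjugates lipid aldehydes, was 2.13 higher (SE 0.42, adjusted p = 0.00930), and the efflux pump *Abcc4* was 2.11 higher (SE 0.31, adjusted p = 0.00297), or 1.11 with normexp. With quantile normalization 11 of these 41 genes were higher and 8 lower.

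In the list of heme breakdown and iron storage 1 of 11 genes was higher and 3 were lower, with a median of -0.18. The heme carrier *Slc48a1* was 0.93 higher (SE 0.26, limma adjusted p = 0.0330). *Blvrb*, a biliverdin reductase, had -0.77 (SE 0.23, adjusted p = 0.0409) and *Ftl1*, the ferritin light chain, had -0.66 (SE 0.19, adjusted p = 0.0338). The call of *Ftl1* was lost with quantile normalization (-0.30, adjusted p = 0.164) and with the series matrix (-0.30, adjusted p = 0.168). Its sign turned without normalization (0.06).

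The metallothionein and zinc list had 1 of 25 genes higher and 2 lower, and a median of 0.14. With quantile normalization 4 were higher and 1 lower, with normexp 5 and 2, and without normalization 15 and 0. *Slc30a9* was 0.89 higher (SE 0.20, limma adjusted p = 0.0160), the manganese exporter *Slc30a10* had -1.08 (SE 0.26, adjusted p = 0.0199), and *Ccs*, which this list shares, was the other lower gene. *Mtf1*, the metal sensor, had 0.11 (SE 0.20, adjusted p = 0.723) and the zinc exporter *Slc30a1*, itself a target of Mtf1, had 0.60 (SE 0.35, adjusted p = 0.246). Both gained a call without normalization (0.84, adjusted p = 0.0381, and 1.33, adjusted p = 0.0472), and with normexp *Slc30a1* gained one (0.74, adjusted p = 0.0840) and *Mtf1* was at about 0.

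**Figure D4:**
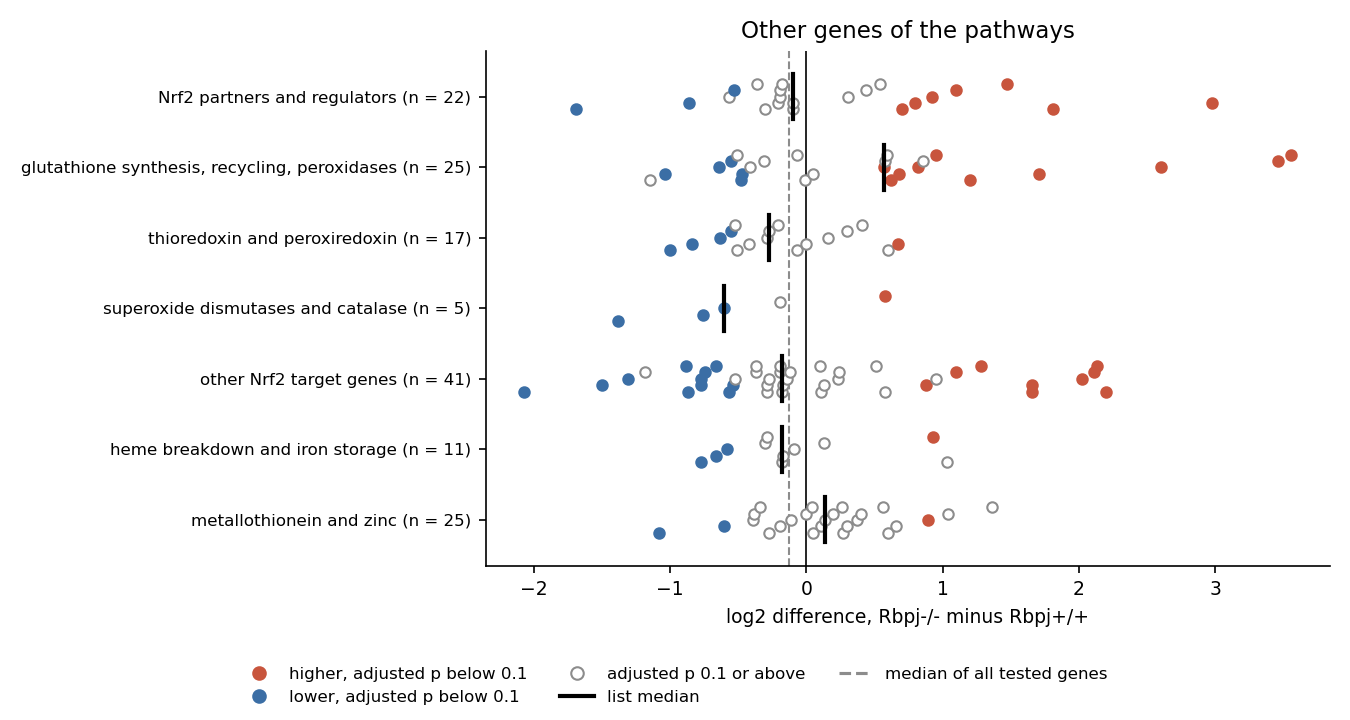
Log2 difference between Rbpj-/- and Rbpj+/+ liver (x axis) of every tested gene in the 7 pathway lists, 1 point per gene, filled red or blue where the adjusted p is below 0.1, with the list median as a black bar. The glutathione list has the highest median (0.57) and 3 of the 25 genes of the metallothionein and zinc list are filled.

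Cell type markers moved with the genotype as well, while over all tested genes 14.6% were called higher and 19.5% lower. Hepatocyte markers were lower in 7 of 10 genes and higher in none, and their summed level was 4680 to 6470 times the 75th percentile in Rbpj+/+ and 3040 to 3510 times in Rbpj-/- liver. With quantile normalization 2 of these 10 genes were higher and 3 lower. Without normalization between arrays 2 were higher and 0 lower, with a median of -0.02 against 0.60 over all tested genes. Kupffer cell and macrophage markers were higher in 8 of 12 genes and lower in 1, with sums of 124 to 158 and 392 to 498. Neutrophil markers were higher in 4 of 9 genes and lower in 1 (6.37 to 25.5 and 34.2 to 71.6), and stellate cell and fibroblast markers were higher in 7 of 10 (118 to 188 and 225 to 269). Endothelial markers were higher in 5 of 10 genes and lower in 1 (57.2 to 83.5 and 98.4 to 149). Cholangiocyte markers were higher in 3 of the 7 tested genes (4.00 to 4.89 and 6.83 to 13.3), while *Epcam*, *Tspan8* and *Sctr* were not tested. The summed level of the 7 tested erythroid markers overlapped (230 to 521 and 103 to 435), with 1 gene higher and 1 lower, and the neutrophil marker *Ly6g* was not tested. Among the tested markers, *Cd163*, *Ccr2*, *Ngp*, *Ltf*, *Mpo*, *Retnlg*, *Mmp8*, *Des*, *Tek* and *Ahsp* were well above background in all Rbpj-/- but only in 1 to 3 of the 4 Rbpj+/+ animals. Of these, *Ccr2*, *Retnlg*, *Mmp8* and *Tek* are among the markers counted as higher, although they entered the test through Rbpj-/- liver only. The part of these cell types in the differences of *Nqo1*, *Hmox1*, *Srxn1* and *Gclc* was not tested.

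The scaling of the arrays decided several member calls. With quantile normalization 16.6% of all genes and 6 members were called higher, *Nfe2l2*, *Txnrd1* and *Mt2* (log2 differences 0.83, 0.49 and 1.71) in addition to *Nqo1*, *Hmox1* and *Srxn1*, and *Gclc* was lower. With normexp background correction 18.2% of all genes and 7 members were called higher, *Keap1* being the seventh (0.42, adjusted p = 0.0869). Without any normalization 41.2% of all genes and 9 members were called higher, and no member was called lower. Read by its brightest probe or by the mean of its tested probes, no member changed the sign of its difference in any of the 20 settings. The dimmer *Hmox1* probe alone had a difference of -0.30 in the setting of the text.

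**Figure D5:**
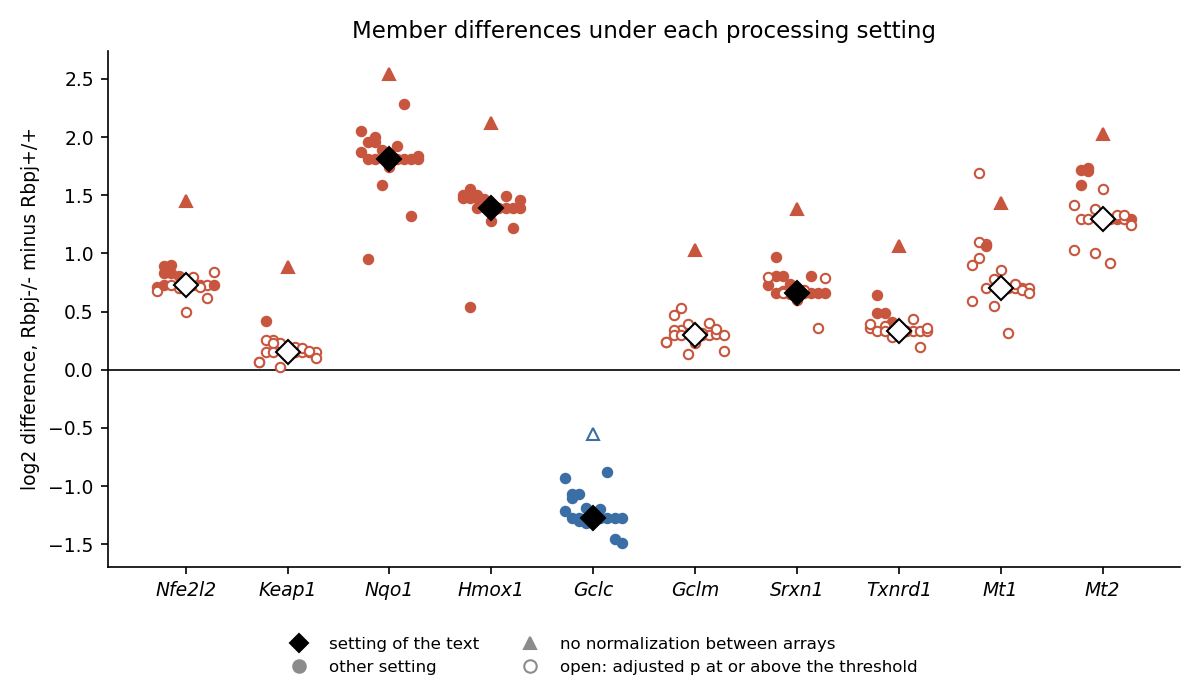
Log2 difference between Rbpj-/- and Rbpj+/+ liver (y axis) of each member under the setting of the text (black diamond) and 20 others (circles, and triangles for no normalization between arrays), filled where the adjusted p is below the threshold. *Hmox1* is filled throughout, *Srxn1* and *Nfe2l2* are divided, and *Gclc* stays below 0.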

How the data were processed

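RNA of 7 livers was hybridised to Agilent 8x60K arrays with 1 dye. The authors deposited the scanner output of Feature Extraction 10.7.3.1, whose intensity values are background-subtracted signals of single spots without normalization between arrays, and a series matrix of log2 values, which the authors made from the same intensities and which was used as an alternative only. Left out were control spots and those with a non-uniformity or population outlier mark (146 probe values), spots of 1 probe were averaged as log2 values (432 probes had several), and each array's 75th percentile was subtracted. The test took probes whose signal, on each array of 1 genotype or of both, carried the marks for positive, significant and well above background. Of 55681 probes 24548 were tested with limma 3.58.1 in R 4.3.3, and p-values were adjusted over these probes by Benjamini-Hochberg. The threshold of 0.1 follows the methods of the study, whose shrinkage t was not run. A gene was read by its brightest tested probe, and every other member probe was given beside it. Single values were compared by exact two-sided permutation over 35 assignments of the animals. Depth is not defined for arrays, and their number limits the precision. The steps were tested on simulated data.

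RefSeq gave the name of 28331 probes through the accession, of 2209 through the symbol and of 174 through a synonym, and 24967 kept the array's name. Probe positions are those of the array design (mm9), and promoters and genes those of GRCm38.p6. The replicate numbers are names only. The members and lists were chosen with earlier results of these data known. Named were all members, *Rbpj*, a fixed set of 12 partner genes, the 3 largest called changes of each pathway list, the 3 genes most like *Mt1*, *Nqo1* and *Hmox1*, and markers not well above background on all arrays, of which some are not reported here. Alternatives were normexp (offset 50), quantile normalization, a 75th percentile from the probes detected throughout, no normalization, no filter, detection on all arrays, compromised spots kept, limma-trend, array weights, the series matrix, averaging a gene's tested probes, a threshold of 0.05 and each array left out. Leaving out the 2 arrays with the most probes above background was added after seeing the data. Python 3.11.15, pandas 2.3.3, numpy 2.4.6, scipy 1.17.1 and matplotlib 3.10.9 were used.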

Additional observations from a re-analysis of the deposited data

How the results depend on the processing

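The number of arrays and the scaling between them limit these results. The text counts 4 members called, 3 higher and 1 lower. The counts were 8 with normexp background correction (7 higher), 7 with quantile normalization (6 higher) and 7 with the series matrix (6 higher). They were 9 without normalization between arrays (9 higher, 0 lower) and 1 without a filter on dim probes (1 higher, 0 lower), where 35666 genes were tested. Members called higher numbered 5 with a 75th percentile from the probes detected throughout, 5 with detection on all 7 arrays and 5 with limma-trend. Of all tested genes 18.1%, 13.8% and 15.2% were called higher in these settings, in the same order. The share of all tested genes called was 34.2% in the text, 41.4% with normexp, 31.8% with quantile normalization and 30.5% with the series matrix. It was 43.5% without normalization between arrays and 4.6% without the filter. Leaving out 1 array gave 3 to 6 members called, 2 to 5 of them higher and 1 lower, 3716 to 7100 genes called of all tested and 30 to 61 pathway genes called, with the lowest of the latter counts without Rbpj-/- replicate 2. All genes called numbered 6406 in the text and 1639 without the filter, and pathway genes 58 in the text, 12 without the filter and 35 at a threshold of 0.05. Calls of all genes were 42.8% higher in the text, 54.9% with the series matrix, 59.1% without the filter and 94.5% without normalization, for which the cause was not tested. The call of *Nqo1* was lost without the filter (adjusted p = 0.156), and that of *Gclc* there (0.143) and without normalization. *Srxn1* lost its call in 9 of 20 settings, *Nfe2l2* gained one in 10 and *Mt2* in 7. No difference of a member was reversed when it was read by its brightest probe or by the mean of its tested probes. No paired analysis was possible because the labels give the animals no shared replicate numbers.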
